A study of Homo sapiens with 9 samples.

Results

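The genes described here are the ligands and receptors of the tumour necrosis factor (TNF) superfamily, taken from tables of gene expression in MOLM13 cells treated with a cereblon-binding drug. Protein-coding genes were taken by symbol, those starting with TNFRSF or TNFSF and a number together with LTBR, NGFR, CD27, CD40, CD70 and FASLG, with 1 receptor gene left out by the rule. This gave 37 genes, 13 ligands and 24 receptors, of 59563 genes listed, and 21 of them (7 ligands and 14 receptors) were measured, meaning a mean of at least 10 normalised counts over all libraries. MOLM13 is an established human acute myeloid leukaemia line that carries a KMT2A fusion and an internal tandem duplication of FLT3. It was grown for 72 h with the solvent DMSO, with 1 µM iberdomide (CC-220) or with 50 nM mezigdomide (CC-92480), both dissolved in DMSO, with 3 libraries in each of the 3 groups. Poly(A) RNA was sequenced. All cells are of 1 line. The labels do not say whether the libraries of each group stem from different cultures, so p-values measure only the spread between them, and that spread may be technical.

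Ligands of this superfamily are mostly membrane proteins that act as trimers on a neighbouring cell or after they are cut from the surface. Receptors with a death domain recruit TRADD or FADD and can start apoptosis or necroptosis, while those without one bind TRAF adaptors and signal mainly to NF-kB and MAP kinases. Decoy receptors bind ligand without passing on a death signal. In myeloid cells the family is known for T and B cell help (CD40, BAFF and APRIL), for inflammation (TNF and its receptors) and for sensitivity to the death ligand TRAIL. Iberdomide and mezigdomide bind cereblon, the substrate receptor of a ubiquitin ligase, and direct it to the transcription factors IKZF1 (Ikaros) and IKZF3. The labels give the purpose no further than a comparison of each drug with DMSO.

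The authors deposited 2 tables of comparisons, 1 for each drug, from which the log2 fold change over DMSO, its standard error (SE) and the adjusted p-value of each gene were taken. The tables give 1 value per gene and comparison, so the spread between libraries enters only through the SE. The fold changes are shrunk towards 0, which understates the change of genes with few reads. An approximate level in each group was back-calculated from the mean over all libraries and both fold changes, and it carries no error of its own.

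The superfamily genes covered a wide range of levels in MOLM13. On the scale of mean normalised counts per kilobase of exon, which allows genes of different length to be compared, the ligand CD70 stood highest at 1394, followed by the TNF receptors TNFRSF1B at 1246 and TNFRSF1A at 927. The ligands TNFSF13 (APRIL) and TNFSF13B (BAFF) followed at 729 and 647, the TRAIL decoy receptor TNFRSF10D at 484, and TNFSF9, the ligand of CD137, at 452. Among 12018 measured protein-coding genes with a known exon length, CD70 lay at the 94.0th percentile and TNFSF9 at the 76.2th. Levels of single genes have no error here, so the order of neighbours was not tested. The lowest measured genes were TNFRSF9 (CD137) with a mean of 17.9 normalised counts and TNFSF4 (OX40 ligand) with 16.9, just above the minimum. Just below it were TNFRSF13C (BAFF receptor) with 8.81, TNFRSF11A (RANK) with 7.79 and TNFRSF4 (OX40) with 7.01.

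Of 23 known ligand and receptor pairs among these genes, 8 had both partners measured. They were TNFSF9 with TNFRSF9, TNFSF10 (TRAIL) with the receptor TNFRSF10A and with the decoys TNFRSF10C, TNFRSF10D and TNFRSF11B, and TNFSF14 (LIGHT) with TNFRSF14 (HVEM), LTBR and the decoy TNFRSF6B. CD70 stood at 1394 mean normalised counts per kilobase while its receptor CD27 stood at 2.98. For BAFF and APRIL, at 647 and 729 per kilobase, the receptors were at 2.23 (TNFRSF13C) and 2.42 (TNFRSF17, BCMA), and TNFRSF13B (TACI) had no read. The opposite arrangement was found for TNFRSF8 (CD30), at 109 per kilobase with its ligand TNFSF8 at 0.0377. These were thus ligands or receptors whose known partner was low in the same cells. FASLG was the other gene with no read in any library. A count of 0 allows a mean of up to 0.333 normalised counts (3 reads over the 9 libraries), an interval that covers counting error only.

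**Figure D1:**
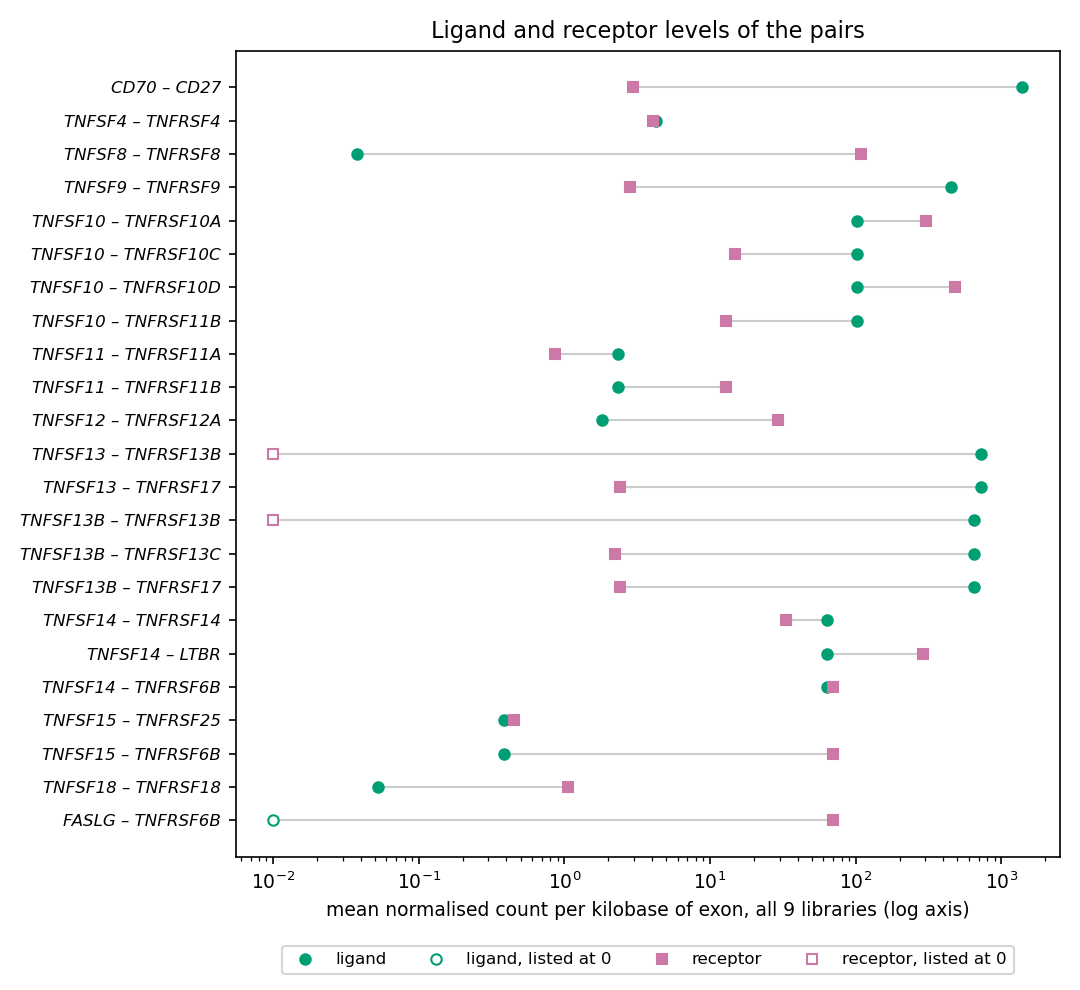
Mean normalised count per kilobase of exon over all 9 libraries, on a log axis, for the ligand (circle) and the receptor (square) of each pair. Open symbols at the left edge are genes listed at 0. CD70, TNFSF13 and TNFSF13B stand at 647 to 1394 while their receptors stand at 2.98 or lower.

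Under iberdomide 8 of the 21 measured members passed an adjusted p of 0.05 per the authors' deposited table (7 above DMSO and 1 below). Of all 19497 genes tested, 14.1% passed (7.3% higher and 6.77% lower), and of genes with a mean of at least 10, 16.9% (8.89% higher and 8.04% lower). All members are protein-coding, and of the 12019 protein-coding genes with such a mean 20.3% passed (10.5% higher and 9.83% lower). The median log2 fold change of the 21 members was 0.016 per the authors' deposited table, against -0.0095 over all genes tested. Under mezigdomide 8 of the 21 also passed per the authors' deposited table, 6 higher and 2 lower, where 21.2% of 20819 genes passed (10.4% higher and 10.7% lower) and 26.9% of genes with a mean of at least 10 (13.3% higher and 13.6% lower). Of the protein-coding genes with such a mean 31.9% passed (15.4% higher and 16.5% lower), near the members' share of 38.1%. The median was 0.095, against -0.0070 over all genes per the authors' deposited table. Counting also the members below the minimum that the tables tested, 10 of 28 passed under iberdomide (8 higher, 2 lower) and 10 of 29 under mezigdomide (7 higher, 3 lower) per the authors' deposited table. Each p comes from the Wald test the authors ran, adjusted over all genes by the method of Benjamini and Hochberg. Both comparisons use the same DMSO libraries, so they are not independent of each other.

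**Figure D2:**
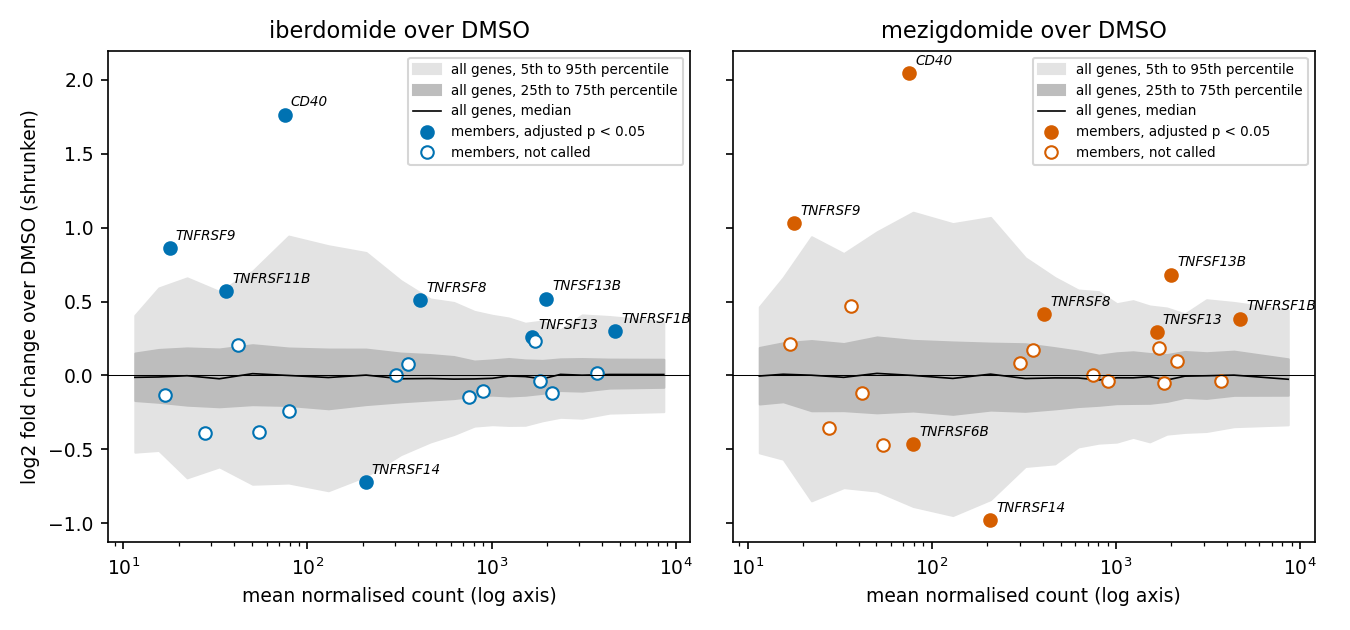
Log2 fold change over DMSO against the mean normalised count (log axis) for the 21 measured members, with iberdomide at the left and mezigdomide at the right. Filled points passed an adjusted p of 0.05. Bands give the spread of all genes with a mean of at least 10 in 20 bins of the mean. CD40, TNFRSF9, TNFSF13B and TNFRSF14 lie outside the band from the 5th to the 95th percentile.

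Among the ligands, BAFF and APRIL rose and the other 5 measured ones did not pass. The called share of the 7 measured ligands was 28.6% under each drug. It stands beside 20.3% (iberdomide) and 31.9% (mezigdomide) of measured protein-coding genes, so it is near the background. TNFSF13B (ENSG00000102524.11; chromosome 13, 108251240 to 108308484, GRCh38) encodes BAFF, a survival factor for B cells that myeloid cells secrete. Its approximate level was 1471 normalised counts under DMSO, 2108 under iberdomide and 2361 under mezigdomide. In bulk RNA a larger share of cells that express a gene and more RNA per cell cannot be told apart, here and in the changes that follow. Both drug groups were higher, with log2 fold changes of 0.52 (SE 0.11, adjusted p = 7.97e-05) and 0.68 (SE 0.11, adjusted p = 3.47e-08), or 1.43-fold and 1.6-fold, per the authors' deposited table. TNFSF13 (ENSG00000161955.16; chromosome 17, 7558292 to 7561608) encodes APRIL, the close relative that binds BCMA and TACI. Its level was about 1455 under DMSO, 1741 under iberdomide and 1780 under mezigdomide. The rise was smaller, 0.26 (SE 0.088, adjusted p = 0.0274) and 0.29 (SE 0.088, adjusted p = 0.00687) per the authors' deposited table. In the GENCODE 29 annotation 55.5% of the exon bases of TNFSF13 also belong to the readthrough gene TNFSF12-TNFSF13 on the same strand. The same holds for 29.4% of those of its neighbour TNFSF12, so that reads of this locus may not be separable. The readthrough gene is not among the named genes listed, and the annotation used for counting is not stated. TNFSF12 (TWEAK) had a mean of 3.41 normalised counts.

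The 5 measured ligands that did not pass were CD70, TNFSF9, TNFSF10, TNFSF14 and TNFSF4. CD70, a costimulator of T cells and a surface antigen of myeloid leukaemia, stood at -0.12 under iberdomide and 0.095 under mezigdomide per the authors' deposited table, with 95% intervals of -0.34 to 0.10 and -0.13 to 0.31. With a mean of 2135 normalised counts, a rise of CD70 as large as that of BAFF under mezigdomide lies outside its interval. TRAIL (TNFSF10), the death ligand, stood at 0.078 (-0.15 to 0.30) and 0.17 (-0.055 to 0.39) per the authors' deposited table. TNFSF9 and TNFSF14, which lie beside CD70 on chromosome 19 with gaps of 47.3 and 57.1 kb, had intervals of -0.39 to 0.10 and -0.21 to 0.22 under iberdomide, and -0.24 to 0.25 and -0.13 to 0.30 under mezigdomide, per the authors' deposited table. TNFSF4 was too low for a narrow interval (-0.58 to 0.32 and -0.23 to 0.66 per the authors' deposited table).

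Receptors without a death domain held the largest changes, and 5 of the 7 measured ones passed under each drug, 4 higher and 1 lower per the authors' deposited table, where 20.3% (iberdomide) and 31.9% (mezigdomide) of protein-coding genes with a mean of at least 10 passed. CD40 (ENSG00000101017.14; chromosome 20, 46118272 to 46129863) is the receptor through which T cell CD40 ligand activates antigen-presenting cells. Its approximate level was 26.4 normalised counts under DMSO, 89.8 under iberdomide and 109 under mezigdomide. It rose 3.4-fold under iberdomide (log2 1.76, SE 0.20, adjusted p = 1.7e-17) and 4.13-fold under mezigdomide (log2 2.05, SE 0.19, adjusted p = 4.44e-24) per the authors' deposited table. Of the members, CD40 changed most under each drug. The mean of CD40 was still only 29.7 normalised counts per kilobase, at the 18.7th percentile of measured coding genes.

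TNFRSF9 (ENSG00000049249.8; chromosome 1, 7915894 to 7943165) encodes CD137, a costimulatory receptor of activated lymphocytes and myeloid cells. Its approximate level was 11.03 normalised counts under DMSO, 20.01 under iberdomide and 22.5 under mezigdomide. It rose by a log2 fold change of 0.86 (SE 0.23, adjusted p = 0.0026) and 1.03 (SE 0.23, adjusted p = 0.000116) per the authors' deposited table. These rises rest on a mean of 17.9 normalised counts. TNFRSF9 is 1 of the lowest measured members, and its ligand TNFSF9, at a mean of 753, did not pass under either drug.

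TNFRSF8 (ENSG00000120949.15; chromosome 1, 12063377 to 12144207) encodes CD30, a receptor of activated lymphocytes and of some lymphomas. Its approximate level was 325 normalised counts under DMSO, 463 under iberdomide and 433 under mezigdomide. It rose by 0.51 (SE 0.097, adjusted p = 4.06e-06) and 0.41 (SE 0.097, adjusted p = 0.000247) on the log2 scale per the authors' deposited table. TNFRSF1B (ENSG00000028137.19; chromosome 1, 12167003 to 12209228), which follows TNFRSF8 after a gap of 22.8 kb, encodes TNF receptor 2, the TRAF-binding receptor for membrane-bound TNF. Its level was about 3978 normalised counts under DMSO, 4901 under iberdomide and 5194 under mezigdomide, the highest mean of all members. It rose by 0.30 (SE 0.071, adjusted p = 0.000388) and 0.38 (SE 0.071, adjusted p = 1.28e-06) per the authors' deposited table. Both neighbours on chromosome 1 were thus higher in the drug groups, while the receptors TNFRSF1A and LTBR, which lie 32.9 kb apart on chromosome 12, did not pass.

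TNFRSF14 (ENSG00000157873.17; chromosome 1, 2555639 to 2565382) was the only measured member that fell under both drugs. It encodes HVEM, which binds LIGHT as a TNF-type receptor and BTLA as an inhibitory ligand. Its approximate level was 294 normalised counts under DMSO, 178 under iberdomide and 149 under mezigdomide. The log2 fold changes were -0.72 (SE 0.12, adjusted p = 6.76e-08) and -0.98 (SE 0.12, adjusted p = 5.39e-14), to 0.606 and 0.508 of the DMSO level, per the authors' deposited table. Of its exon bases 13.4% are shared with the antisense gene TNFRSF14-AS1 on the opposite strand, and the kit is not stated to keep strand. TNFRSF14-AS1, with a mean of 18.4 normalised counts, stood at -0.58 (adjusted p = 0.0747) under iberdomide and at -0.72 (adjusted p = 0.0122) under mezigdomide per the authors' deposited table. The part of the overlap in the fall of TNFRSF14 was not tested.

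Promoter sequences are shown for TNFRSF9, TNFRSF14 and TNFSF13B, the 3 measured members with the largest changes under mezigdomide among those with an entry in the RefSeq promoter table (build GRCh38.p14). CD40 has no entry there. The start sites are RefSeq's and lie inside the GENCODE 29 gene bounds given above, not at their ends. Each run holds the 250 bases before the start site and the 50 bases from it, 5′ to 3′ on the gene's strand. Capitals mark matches on either strand to the Ikaros core word TGGGAA, the kappa B consensus of NF-kB, the AP-1 word TGANTCA, the interferon response word (GAAA, any pair of bases, GAAA) or the PU.1 core word GAGGAA.
TNFRSF9 (chr1:7940790-7941089, minus strand): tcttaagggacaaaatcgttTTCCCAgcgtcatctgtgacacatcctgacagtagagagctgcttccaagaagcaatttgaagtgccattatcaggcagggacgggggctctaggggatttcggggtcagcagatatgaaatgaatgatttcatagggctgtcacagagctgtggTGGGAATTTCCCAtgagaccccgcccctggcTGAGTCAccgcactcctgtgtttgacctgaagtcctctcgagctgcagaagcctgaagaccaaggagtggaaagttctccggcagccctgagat
TNFRSF14 (chr1:2556121-2556420, plus strand): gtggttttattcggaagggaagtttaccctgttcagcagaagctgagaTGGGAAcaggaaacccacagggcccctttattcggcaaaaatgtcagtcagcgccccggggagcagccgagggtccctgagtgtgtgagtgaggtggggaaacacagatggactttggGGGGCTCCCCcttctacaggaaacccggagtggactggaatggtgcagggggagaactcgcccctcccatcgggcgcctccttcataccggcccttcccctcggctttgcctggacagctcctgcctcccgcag
TNFSF13B (chr13:108269379-108269678, plus strand): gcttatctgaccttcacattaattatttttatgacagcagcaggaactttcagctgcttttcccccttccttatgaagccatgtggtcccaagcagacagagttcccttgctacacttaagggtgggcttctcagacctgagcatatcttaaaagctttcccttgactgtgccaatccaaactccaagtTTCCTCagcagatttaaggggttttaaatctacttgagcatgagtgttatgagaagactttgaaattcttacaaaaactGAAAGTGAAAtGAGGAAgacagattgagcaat

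In the TNFRSF9 window the second stretch of capitals holds kappa B matches on both strands, which overlap each other and a TGGGAA match on each strand, and the last stretch is an AP-1 match. TNFRSF14 held 1 TGGGAA match and 1 kappa B match. TNFSF13B held 2 GAGGAA matches and 1 interferon response match, the latter followed after 1 base by GAGGAA. Of all 35116 windows of 300 bases in the table, 24% hold TGGGAA, 5.91% the kappa B consensus, 7.71% TGANTCA, 3.57% the interferon response word and 27.9% GAGGAA. Of the 9 measured members called under a drug, 7 have an entry that was searched, and the kappa B consensus was found in 3 of them, TNFRSF9, TNFRSF14 and TNFSF13. It was found in 1 of the 7 other measured members searched, TNFSF14. TGGGAA was found in 3 and 2, TGANTCA in 2 and 1, the interferon response word in 2 and 3, and GAGGAA in 2 and 4, of the same 7 called and 7 other members. A gene was counted when any of its windows held a match, and some genes, such as TNFSF13 and TNFSF13B, have more than 1 window. The shares of all 35116 windows are for single windows, so they are not a matched rate for these counts of genes. The called members with both TGGGAA and kappa B matches were TNFRSF14, which fell, and TNFRSF9 and TNFSF13, which rose. In TNFSF13 the TGGGAA and kappa B matches lie in different windows. Whether a match bears on the direction of change was not tested. A match is a string of letters in this window and not a measured binding site.

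LTBR, the lymphotoxin beta receptor, and TNFRSF12A (Fn14), the receptor of TWEAK, completed the receptors without a death domain, and neither passed per the authors' deposited table. LTBR had narrow intervals, -0.16 to 0.10 under iberdomide and -0.18 to 0.082 under mezigdomide, per the authors' deposited table. TNFRSF12A stood at -0.38 (adjusted p = 0.204) and -0.47 (adjusted p = 0.0619) per the authors' deposited table. Its value under mezigdomide passed when p-values were adjusted over protein-coding genes only (adjusted p = 0.0444) or over genes with a minimum mean of 10 (adjusted p = 0.0489) or 50 (adjusted p = 0.0433), and the fold change was -0.23 (adjusted p = 0.479) after a trend with GC content and length was removed.

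**Figure D3:**
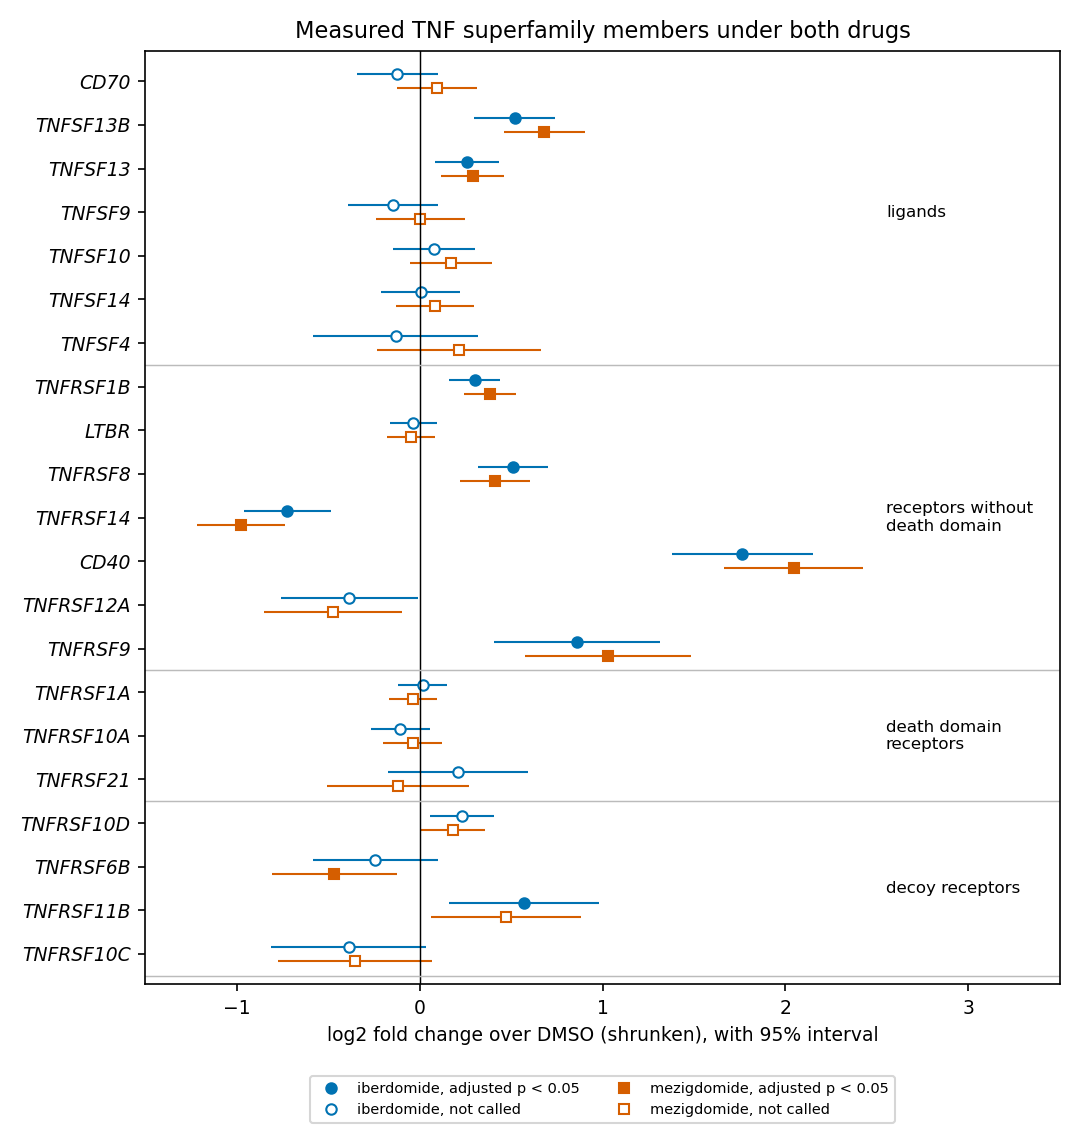
Log2 fold change over DMSO (horizontal axis) with 95% interval for the 21 measured members under iberdomide (circles) and mezigdomide (squares), grouped by role. Filled symbols passed an adjusted p of 0.05. CD40 stands at 1.76 and 2.05 and TNFRSF14 at -0.72 and -0.98. The intervals of the 3 death domain receptors include 0 under both drugs, and those of TNFRSF21 are the widest of these.

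**Figure D4:**
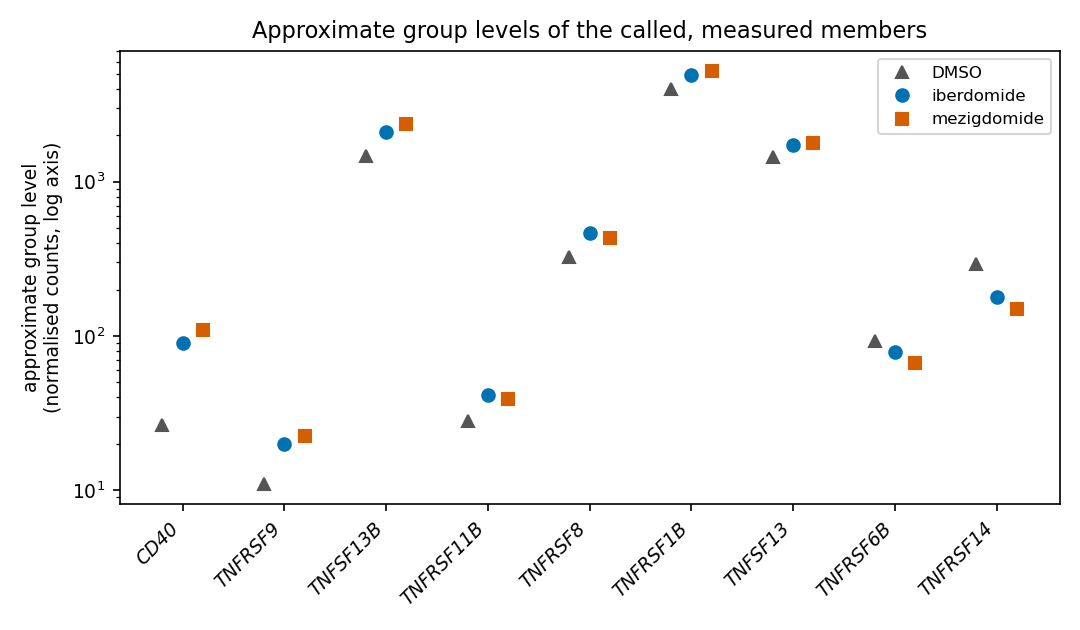
Approximate level in each group (normalised counts, log axis), back-calculated from the mean and both fold changes, for the 9 measured members called under at least 1 drug. The points have no error bars because the tables hold none for a level. CD40 goes from 26.4 under DMSO to 89.8 and 109, and TNFRSF14 from 294 to 178 and 149.

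None of the 3 measured death domain receptors passed by the Wald test under either drug per the authors' deposited table, and none had an unadjusted p under 0.05. Of measured protein-coding genes 20.3% passed under iberdomide and 31.9% under mezigdomide, so none among 3 does not set these receptors apart. These 3 do not include the receptor that the rule leaves out, or FAS, which carries another symbol and fell under both drugs (-0.36 and -0.29 per the authors' deposited table). TNFRSF1A, the main receptor for soluble TNF, stood at 0.016 (95% interval -0.12 to 0.15) and -0.036 (-0.17 to 0.097) per the authors' deposited table, with a mean of 3714 normalised counts. TNFRSF10A, a TRAIL receptor that can start apoptosis, stood at -0.11 (-0.27 to 0.056) and -0.038 (-0.20 to 0.12) per the authors' deposited table. TNFRSF21 (death receptor 6) had a mean of 41.8 normalised counts and a wider interval, -0.17 to 0.59 and -0.50 to 0.27, per the authors' deposited table.

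All 4 decoy receptors were measured, and 1 passed under each drug per the authors' deposited table. They were different genes, TNFRSF11B as higher under iberdomide and TNFRSF6B as lower under mezigdomide. The called share of 25% stands beside 20.3% (iberdomide) and 31.9% (mezigdomide) of measured protein-coding genes, so it is near the background. TNFRSF10D, a decoy for TRAIL with a mean of 1711 normalised counts, stood at 0.23 (SE 0.089, adjusted p = 0.0655) under iberdomide and 0.18 (SE 0.089, adjusted p = 0.139) under mezigdomide per the authors' deposited table, and did not pass. Under iberdomide it passed when p-values were adjusted over protein-coding genes only (adjusted p = 0.0481) or over genes at a minimum mean of 50 (adjusted p = 0.0487). TNFRSF10C, another TRAIL decoy with 26.0% of its exon bases shared with a non-coding gene on the same strand, stood at -0.39 (adjusted p = 0.282) and -0.36 (adjusted p = 0.268) per the authors' deposited table.

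TNFRSF11B encodes osteoprotegerin, the soluble decoy for RANK ligand that also binds TRAIL. Its approximate level was 28.1 normalised counts under DMSO, 41.7 under iberdomide and 39.0 under mezigdomide. It passed under iberdomide, at 0.57 (SE 0.21, adjusted p = 0.0466), and not under mezigdomide, at 0.47 (SE 0.21, adjusted p = 0.0951), per the authors' deposited table. The call was lost with no filter on low means (adjusted p = 0.0839) and once the trend with GC content and length was taken out (0.55, adjusted p = 0.0594). TNFRSF6B (ENSG00000243509.6; chromosome 20, 63696651 to 63698684) encodes decoy receptor 3, which binds FAS ligand, LIGHT and TL1A. It passed under mezigdomide, at -0.47 (SE 0.17, adjusted p = 0.0387), and not under iberdomide, at -0.24 (SE 0.17, adjusted p = 0.463), per the authors' deposited table. That call was lost with no filter on low means (adjusted p = 0.0655), and once the trend was taken out the mezigdomide value was -0.17 (adjusted p = 0.593). All of its exon bases (100%) also belong to the readthrough gene RTEL1-TNFRSF6B in GENCODE 29. That readthrough gene is not among the named genes listed, and the annotation used for counting is not stated. RTEL1 itself stood at -0.31 under mezigdomide (adjusted p = 0.0384) per the authors' deposited table. TNFRSF6B is thus uncertain as a gene of its own.

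The remaining 16 members lay below the minimum, 14 with reads and 2 without. The tables tested 7 of them under iberdomide and 8 under mezigdomide, and 2 passed under each drug. These are 28.6% and 25% of those tested, beside 14.1% and 21.2% of all genes tested. Genes with a mean of at least 10 passed more often, at 16.9% and 26.9%. The shares among tested genes below that mean were thus lower than 14.1% and 21.2%. They were not worked out, and 2 genes are too few for a comparison of shares. TNFSF11 encodes RANK ligand, the cytokine that drives osteoclast formation. At a mean of 6.34 normalised counts it stood at 0.70 (SE 0.21, adjusted p = 0.00932) and 0.93 (SE 0.21, adjusted p = 0.000195) per the authors' deposited table. TNFRSF4 encodes OX40, a costimulatory receptor of T cells. At a mean of 7.01 it stood at -0.84 (SE 0.22, adjusted p = 0.00195) and -0.99 (SE 0.22, adjusted p = 8.79e-05) per the authors' deposited table. Both calls rest on few reads, with approximate levels of 4.197, 6.84 and 7.97 normalised counts for TNFSF11 and of 10.2, 5.71 and 5.12 for TNFRSF4 under DMSO, iberdomide and mezigdomide. Of the others that were tested, TNFRSF13C, TNFRSF11A, CD27, TNFSF12 and TNFSF15 (TL1A) did not pass under either drug, nor did TNFRSF17 under mezigdomide. Of the exon bases of CD27, 37.0% are shared with the antisense gene CD27-AS1. TNFRSF25, TNFRSF18, TNFRSF19, NGFR, TNFSF8 and TNFSF18, with means of 0.105 to 1.92, were listed with a p but not adjusted. TNFRSF18 (GITR), 4.63 kb from TNFRSF4 on chromosome 1, had a mean of 1.44 and an unadjusted p of 0.00948 and 0.00927 per the authors' deposited table.

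The doses of the drugs differ, so a difference between the drug groups is one between these treatments as given. No member passed the test of that difference, and none had an unadjusted p under 0.05 among the 28 tested, with both errors taken as independent. With an error correlation of 0.5 none passed either, and 1, TNFRSF14, had an unadjusted p under 0.05. Of 19497 genes 0.108% passed (0.0462% higher and 0.0615% lower under mezigdomide), and of those with a mean of at least 10, 0.135% (0.0578% and 0.0771%). TNFRSF14 had the smallest p of the members, with a mezigdomide minus iberdomide difference of -0.25 on the log2 scale (95% interval -0.59 to 0.083), and TNFSF4 the largest difference in size, 0.35 (-0.29 to 0.98). CD40 differed by 0.28 (-0.26 to 0.82) and TNFSF13B by 0.16 (-0.15 to 0.48). TNFRSF11B and TNFRSF6B, each called under 1 drug, differed by -0.098 (-0.68 to 0.48) and -0.22 (-0.71 to 0.26). The intervals are narrowest for genes with many reads, such as -0.20 to 0.17 for LTBR and -0.11 to 0.28 for TNFRSF1B. The error used here takes both fold changes as independent and is an upper limit.

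Genes of the superfamily that carry other symbols were TNF, LTA, LTB, CD40LG, EDA, FAS, EDAR, EDA2R and RELT. Of these 9, 6 were tested, and under each drug 1 rose and 1 fell per the authors' deposited table, with a median of 0.18 under iberdomide and 0.29 under mezigdomide. The called share of 33.3% stands beside 20.3% and 31.9% of measured protein-coding genes, so under mezigdomide it is near the background. TNF, the founding cytokine, had a mean of 2188 normalised counts and stood at 0.65 (SE 0.10) and 0.59 (SE 0.10), above DMSO under both drugs per the authors' deposited table. FAS, the death domain receptor for FAS ligand, fell by 0.36 (SE 0.11, adjusted p = 0.0126) and by 0.29 (SE 0.11, adjusted p = 0.0411) per the authors' deposited table. TNF thus stood higher together with its receptor TNFRSF1B and not with TNFRSF1A. RELT and LTB, with means of 744 and 437, did not pass (0.13 and 0.070 under mezigdomide per the authors' deposited table). CD40LG, the ligand of CD40, had a mean of 0.755 normalised counts and was not tested.

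Genes that act next to the receptors had 34 members (adaptors, kinases, caspases and ubiquitin enzymes), of which 33 were tested. Under iberdomide 4 rose and 4 fell per the authors' deposited table, 24.2% of those tested, and under mezigdomide 7 rose and 5 fell, 36.4%. These shares lie near the 20.3% and 31.9% of measured protein-coding genes. Their medians were -0.021 and 0.078 per the authors' deposited table. MLKL, the pore-forming effector of necroptosis, rose by 0.60 (SE 0.069) and 0.66 (SE 0.069, adjusted p = 4.24e-20) per the authors' deposited table. CFLAR, the inhibitor of caspase 8 at death receptors, rose by 0.31 (SE 0.099, adjusted p = 0.0187) and 0.56 (SE 0.099, adjusted p = 2.99e-07) per the authors' deposited table. The adaptor TRAF3IP2, which serves interleukin 17 receptors, rose by 0.50 (SE 0.10) and 0.59 (SE 0.10, adjusted p = 3.2e-07) per the authors' deposited table. TNFAIP3 (A20), the ubiquitin-editing brake on NF-kB, fell by 0.63 (SE 0.13) and 0.66 (SE 0.13, adjusted p = 4.56e-06) per the authors' deposited table.

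The other genes of this list that fell under mezigdomide were TRAF1, TRAF3, TRAF4 and BIRC3, named here after their values were seen. TRAF1 stood at -0.93 (SE 0.21) and -0.90 (SE 0.21), and TRAF4 at -0.30 (adjusted p = 0.0449) and -0.41 (adjusted p = 0.00152), per the authors' deposited table. TRAF3, which holds the kinase MAP3K14 (NIK) in check, stood at -0.17 (adjusted p = 0.199) and -0.23 (adjusted p = 0.0302), and MAP3K14 at 0.53 (adjusted p = 0.00136) and 0.51 (adjusted p = 0.00142), per the authors' deposited table. BIRC3, an inhibitor of apoptosis bound to TRAF proteins, had a mean of 7.53 normalised counts and stood at -0.64 (adjusted p = 0.036) and -0.83 (adjusted p = 0.00211) per the authors' deposited table. The other genes of this list that rose under mezigdomide, also named after their values were seen, were OTULIN at 0.31 (adjusted p = 0.00247), TAB2 at 0.26 (adjusted p = 0.00639) and RIPK1 at 0.23 (adjusted p = 0.0134) per the authors' deposited table. The kinases IKBKB and MAP3K7, with means of 4552 and 3320, did not pass (-0.085 and -0.017 under mezigdomide per the authors' deposited table).

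Of 6 genes that cut ligands and receptors from the surface or regulate this, 5 were tested. Under iberdomide none passed the Wald test per the authors' deposited table, and 1 had an unadjusted p under 0.05. Under mezigdomide 2 rose, the proprotein convertase FURIN, which processes BAFF and APRIL, at 0.31 (SE 0.11, adjusted p = 0.0183) and the sheddase ADAM10 at 0.19 (SE 0.068, adjusted p = 0.0336), per the authors' deposited table. Of measured protein-coding genes 31.9% passed under mezigdomide. ADAM17, the main sheddase of TNF, stood at 0.13 and 0.15 per the authors' deposited table, and RHBDF2, a regulator of ADAM17, at -0.13 and -0.20, and neither passed.

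**Figure D5:**
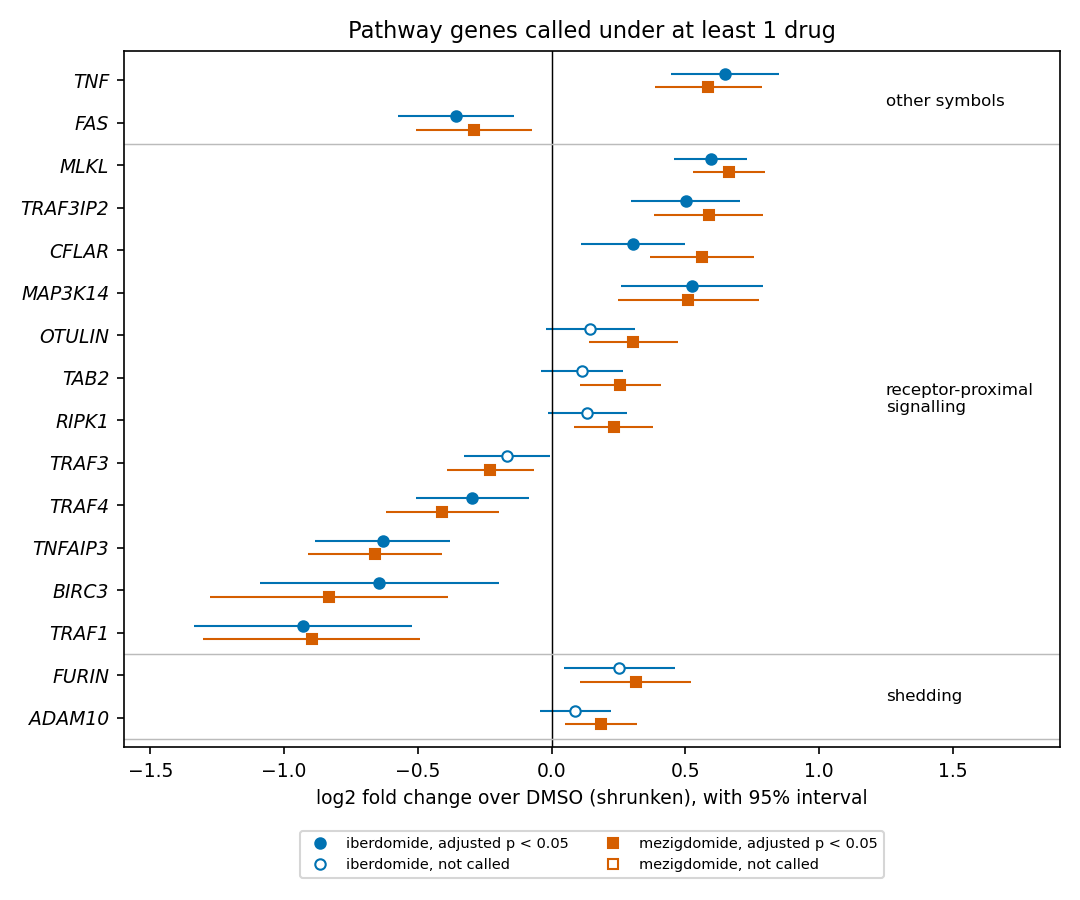
Log2 fold change over DMSO (horizontal axis) with 95% interval for the genes of the 3 pathway lists that passed an adjusted p of 0.05 under at least 1 drug, for iberdomide (circles) and mezigdomide (squares). TNF stands at 0.65 and 0.59, MLKL at 0.60 and 0.66, and TRAF1 at -0.93 and -0.90.

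Library depth, worked out from the means of genes with 1 read in 1 library, ranged from about 20876636 to 25305285 counted reads. All 8 markers of a myeloid leukaemia line were measured, with means of 1070 to 11798 normalised counts, and their summed approximate level was 30218 under DMSO, 38371 under iberdomide and 41517 under mezigdomide. ANPEP, CSF1R, MPO, CD68 and CD33 of this list passed as higher under both drugs. Of measured protein-coding genes 10.5% (iberdomide) and 15.4% (mezigdomide) passed as higher. FLT3 (-0.028 and 0.085), HOXA9 (-0.083 and -0.15) and MEIS1 (-0.084 and -0.055) did not pass under either drug per the authors' deposited table. Of 6 T cell markers 2 were measured, CD4, which myeloid cells also carry, at 9916 and CD3D at 19.1, while CD3E, CD3G and CD8A were at 0.344 or lower and CD8B had no read. The list's summed level was 8180, 10507 and 11120 in the same order of groups and is nearly all CD4, while CD3D fell, at -0.85 (adjusted p = 0.00248) and -1.253 (adjusted p = 9.39e-07), per the authors' deposited table. Of 5 NK cell markers 3 were measured, NKG7 at 1063, NCAM1 at 718 and GNLY at 124, and NCR1 had no read. Their summed level was 1808, 1956 and 1955, and GNLY rose by 2.28 and 2.71 on the log2 scale per the authors' deposited table. Of 5 stromal and endothelial markers 3 were measured, with a summed level of 119, 170 and 182. COL1A1 stood at 1.41 and 1.49, while PDGFRB stood at -0.66 and -0.42 and VWF at -0.72 and -0.74 per the authors' deposited table. The part of these markers in the changes above was not tested.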

How the data were processed

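Poly(A) RNA-seq of MOLM13 cells was compared between DMSO, iberdomide and mezigdomide, 3 libraries each, grouped by the titles in the labels. The submitters' processing notes name STAR 2.7.5a, HTSeq 0.6.1pl and DESeq2 and the build GRCh38, with no role or order, and how reads were counted is not stated in these sources. Per the file headers, the authors deposited 2 DESeq2 tables of 59699 rows. The deposited mean signal is a mean of counts divided by size factors, equal in both tables. The deposited log2 fold changes and SE are those of drug over DMSO. The deposited score is the Wald statistic, equal to their ratio within 1.56e-13. The deposited p-value is adjusted above a mean of 2.87 (iberdomide) or 2.01 (mezigdomide) normalised counts. Genes with 1 read have absolute log2 fold changes of at most 0.0132, which shows the shrinkage.

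Left out were 44 second copies on chromosome Y and 92 rows with no gene name. The result of 1 list of cell type markers is not reported here. Since the tables hold no counts, the authors' Wald test took the place of a count test. Calls are at an adjusted p under 0.05. The difference between drugs was tested with a two-sided normal test over 19497 genes (scipy 1.17.1), checked on simulated data. Intervals are 95%. Positions, exon lengths and overlaps come from GENCODE 29 (GRCh38). Depth was about 20876636 to 25305285 reads per library.

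The members and lists were chosen with earlier results of these data known. Measured members that passed are given in full. Of each pathway list up to 4 genes with the smallest adjusted p under mezigdomide and up to 2 with the highest mean that did not pass are named. Alternatives were no filter on low means, minimum means of 10 and 50, protein-coding genes only, centred fold changes, removal of a quadratic trend with GC content and length, and an error correlation of 0.5.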

Additional observations from a re-analysis of the deposited data

How the results depend on the processing

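No paired analysis was possible because the tables give 1 value per comparison, and for the same reason leaving out replicates and other count tests and normalizations were not run. Under the alternatives run, no called change reversed its direction. Under iberdomide 2 members were lower, and 1 with a minimum mean of 10 or of 50, which leaves out TNFRSF4. No called change of CD40, TNFRSF9, TNFRSF8, TNFRSF1B, TNFRSF14, TNFSF13B or TNFSF13 was lost under any alternative that tested it. TNFRSF9, TNFSF11 and TNFRSF4 are below the stricter minimum means in part or in full. With an error correlation of 0.5 no member passed the test of the difference between drugs. Fold changes of genes with few reads are understated by the shrinkage, and for measured members with means under 50 normalised counts an SE of about 0.2 leaves moderate changes undetectable.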
